A study of Mus musculus with 32 samples.

Results

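Tumors grown from the mouse mesothelioma cell lines AB1 and AE17 were examined for genes of macrophage activation and lipid handling. The list held 10 genes that mark macrophages or their activation states. A row of the gene counts table carried the symbol of 7 of them, out of 39676 genes in the table, and these 7 were Mrc1, Nos2, Chil3, Trem2, Gpnmb, Apoe and Cd68. The other 3 listed genes were not analysed here. RNA of 32 whole tumors was sequenced, with 8 tumors from 8 mice in each of 4 groups, and each sequencing library gave between 15432258 and 20649645 counts assigned to genes. AB1 cells (500000 per mouse) were given to BALB/c mice and AE17 cells (1000000 per mouse) to C57BL/6 mice, either into the pleural space (IPL, 200 µL) or under the skin of the right flank (SC, 100 µL). The mice were untreated females, and tumors were taken on day 10 after lungs and neighbouring tissue had been trimmed away. Each model was 1 cell line in 1 mouse strain, so cell line, strain and number of cells cannot be told apart in any comparison of AB1 with AE17.

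Macrophages take up dying cells, lipoproteins and debris, and they change their gene expression with the signals around them. Interferon and bacterial products induce Nos2, the inducible nitric oxide synthase, while interleukin 4 and interleukin 13 induce Mrc1, the mannose receptor, and Chil3, a secreted chitinase-like protein. A further state, described in fat, atherosclerotic vessels and tumors, is rich in lipids: Trem2 is its lipid-sensing surface receptor, Gpnmb is a glycoprotein of lysosomes and the cell surface, and Apoe carries lipids out of the cell. Cd68, a lysosomal membrane protein, is a general marker of phagocytes. None of these genes is restricted to macrophages, since tumor cells and fibroblasts can express Apoe, Gpnmb and Cd68.

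The stretch of 250 bases before the RefSeq gene start is shown for Mrc1, Trem2 and Cd68. They are 3 of the 4 members called as lower in AB1 IPL tumors. The other of these 4, Nos2, had no window in the RefSeq set used. Gpnmb, the member that fell in AE17 IPL tumors, is shown too. Sequences are from RefSeq on build GRCm38.p6, written 5′ to 3′ along the gene's strand. Capitals mark GAGGAA on either strand (TTCCTC on the reverse), the core recognised by the macrophage factor PU.1.
Mrc1, chr2:14229164-14229413, plus strand: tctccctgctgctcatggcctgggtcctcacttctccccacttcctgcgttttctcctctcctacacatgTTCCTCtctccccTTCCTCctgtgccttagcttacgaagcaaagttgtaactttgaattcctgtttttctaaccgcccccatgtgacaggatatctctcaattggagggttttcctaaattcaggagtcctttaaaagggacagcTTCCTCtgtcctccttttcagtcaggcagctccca
Trem2, chr17:48346151-48346400, plus strand: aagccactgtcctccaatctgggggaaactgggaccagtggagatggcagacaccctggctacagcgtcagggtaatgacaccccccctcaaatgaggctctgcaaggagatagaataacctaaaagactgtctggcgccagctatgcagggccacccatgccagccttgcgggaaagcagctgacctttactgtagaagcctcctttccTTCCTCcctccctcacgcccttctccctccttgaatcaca
Cd68, chr11:69666171-69666420, minus strand: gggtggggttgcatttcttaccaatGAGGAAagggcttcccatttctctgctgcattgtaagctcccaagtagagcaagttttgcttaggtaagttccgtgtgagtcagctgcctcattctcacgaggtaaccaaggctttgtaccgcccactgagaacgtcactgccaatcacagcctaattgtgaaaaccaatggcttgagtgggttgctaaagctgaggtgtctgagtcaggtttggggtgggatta
Gpnmb, chr6:49036268-49036517, plus strand: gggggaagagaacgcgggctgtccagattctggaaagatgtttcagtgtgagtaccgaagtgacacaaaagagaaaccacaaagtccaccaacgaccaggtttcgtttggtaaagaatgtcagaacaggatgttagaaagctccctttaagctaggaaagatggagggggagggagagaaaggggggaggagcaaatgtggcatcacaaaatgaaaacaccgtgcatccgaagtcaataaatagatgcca
The Mrc1 window holds the letters at 3 places, the Trem2 and Cd68 windows at 1 place each and the Gpnmb window at none, and 23.3% of 32851 RefSeq windows of this length hold at least 1. Among members not shown, the Chil3 window holds them at 0 places and the Apoe windows at 1, 0 and 1 places. The letters CACGTG and TCATGTG, which factors of the MITF family recognise, are in none of the 4 windows shown and in 6.02% and 3.25% of all windows. These matches describe the sequence, and a link to binding or to the site differences was not tested.

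Levels are given as CPM, the read counts of a gene scaled to the size of the library and between tumors by the trimmed mean of M-values (TMM). Per kilobase of exon, a scale on which genes can be set side by side, Apoe had the highest mean over the 32 tumors at 522 CPM per kb. Cd68 followed at 118 and Mrc1 at 46.3 CPM per kb. Trem2 (10.0), Chil3 (5.05), Nos2 (3.87) and Gpnmb (2.15 CPM per kb) were lower. The counts behind the values were smallest for Chil3, from 9 reads in 1 tumor to 1096 in another, so its values carry the largest counting error of the 7 genes.

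The first comparison asked which of these genes differed between pleural and subcutaneous tumors of the AB1 line. In AB1 IPL tumors 4 of the 7 genes fell: Nos2, Mrc1, Trem2 and Cd68. None rose, and all 7 log2 fold changes were below 0, with a median of -0.50 beside 0 over all genes. An edgeR quasi-likelihood test called a gene at an adjusted p under 0.05, after the Benjamini-Hochberg method over 14645 genes, and it called 23% of them, 10.7% with a negative change. The tumors are bulk samples, so fewer macrophages and less RNA per macrophage cannot be told apart.

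**Figure D1:**
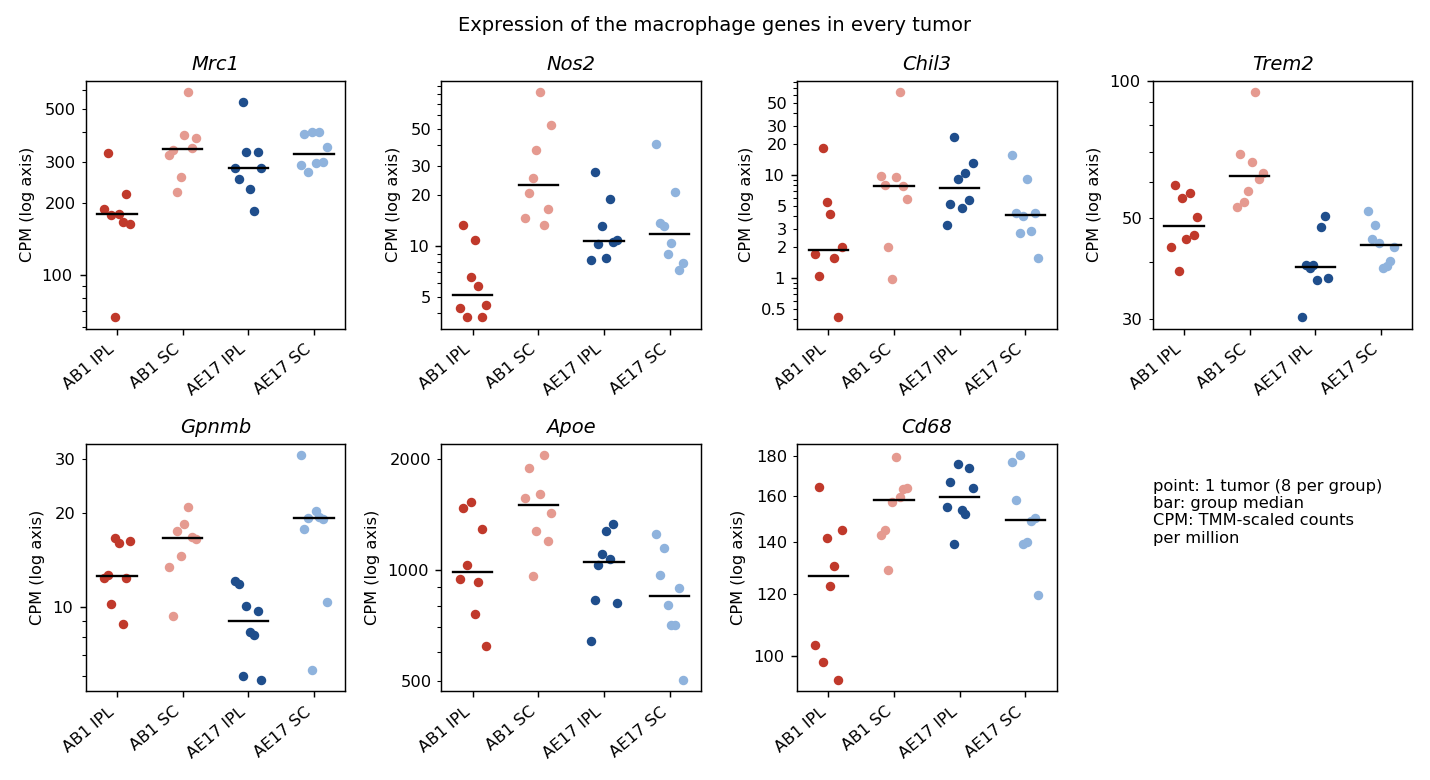
Level of each of the 7 genes in every tumor, in CPM on a log axis, for the 4 groups of 8 tumors. Points are tumors and bars are medians. For Nos2 all 8 AB1 IPL tumors lie at or below the lowest AB1 SC tumor (highest IPL value 13.34, lowest SC value 13.35 CPM).

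Nos2, which makes nitric oxide from arginine, ran from 3.77 to 13.34 CPM in AB1 IPL tumors, with a median of 5.13. It ran from 13.35 to 82.2 CPM in AB1 SC tumors, with a median of 23.03. The 2 groups did not overlap under TMM scaling, but IPL replicate 2 and SC replicate 6 were almost level, and under DESeq2 size factors 7 rather than 8 IPL tumors lay below every SC tumor. The difference was -2.33 on the log2 scale (SE 0.41, adjusted p = 0.000628), a level 5.02-fold lower in IPL tumors. Leaving out each of the 16 tumors in turn kept this call.

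Mrc1, an endocytic receptor for mannose-bearing glycoproteins, ran from 66.1 to 326 CPM in AB1 IPL tumors around a median of 179, while AB1 SC tumors spanned 224 to 588 CPM (median 338). In 7 of 8 IPL tumors it was below every SC tumor, and the other one, IPL replicate 2, lay inside the SC range. Mrc1 fell by 0.94 on the log2 scale (SE 0.24, adjusted p = 0.00845), and the call was kept without any 1 tumor. Without IPL replicate 4, the tumor with the lowest Mrc1, the difference was -0.84 (adjusted p = 0.00472).

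Trem2 signals through the adaptor Tyrobp after binding lipids and lipoproteins. It ran from 38.2 to 59.1 CPM in AB1 IPL tumors around a median of 48.1, while AB1 SC tumors spanned 52.9 to 94.5 CPM (median 61.9). All 8 IPL tumors were below the SC median, and 5 were below every SC tumor. The decrease was small, -0.41 on the log2 scale (SE 0.12, adjusted p = 0.0174), and was still called at -0.30 (adjusted p = 0.0258) without SC replicate 6, the tumor with the highest Trem2.

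Cd68 ran from 93.1 to 165 CPM in AB1 IPL tumors around a median of 127, while AB1 SC tumors spanned 129 to 179.5 CPM (median 159). The ranges overlapped, and 7 of 8 IPL tumors were below the SC median. Cd68 fell by 0.33 on the log2 scale (SE 0.11, adjusted p = 0.0401), and this call was lost in 9 of the 16 fits that left out 1 tumor. These were the fits without IPL replicate 1, 3, 5 or 7 or SC replicate 4, 5, 6, 7 or 8, with adjusted p from 0.0578 to 0.08 and log2 differences from -0.33 to -0.27.

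The remaining 3 genes did not pass the test in AB1. Apoe ran from 624 to 1529 CPM in IPL tumors around a median of 990.1, while SC tumors spanned 967 to 2050.4 CPM (median 1500.2), a difference of -0.50 (SE 0.19, adjusted p = 0.0659). It passed without IPL replicate 2, IPL replicate 4 or SC replicate 3 (log2 differences from -0.62 to -0.56, adjusted p from 0.023 to 0.0417), and DESeq2 called it too. Gpnmb ran from 8.81 to 16.7 CPM in IPL tumors around a median of 12.5, while SC tumors spanned 9.34 to 21.04 CPM (median 16.7), a difference of -0.29 (SE 0.16, adjusted p = 0.198). For Apoe 4 of 8 IPL tumors were below every SC tumor and 4 of 8 SC tumors above every IPL tumor, and for Gpnmb the counts were 1 and 4.

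Chil3 was the most uneven member within groups. It ran from 0.418 to 18.6 CPM in AB1 IPL tumors around a median of 1.88, while AB1 SC tumors spanned 0.988 to 63.9 CPM (median 7.91). A single tumor, SC replicate 6, held the highest value, and the next highest SC tumor had 9.78 CPM. The difference of -1.63 (SE 0.82, adjusted p = 0.171) became -0.51 (adjusted p = 0.619) without that tumor. It became -2.53, and was called (adjusted p = 0.03), without IPL replicate 3, the IPL tumor with the most Chil3.

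Sites and sequencing lanes were not balanced: all 8 AB1 IPL libraries and 2 of the AB1 SC libraries were on lane 3, and the other 6 AB1 SC libraries were on lane 2. Within lane 3 the differences were -1.49 for Nos2 (SE 0.44, adjusted p = 0.185), -0.87 for Mrc1 (SE 0.38, adjusted p = 0.384), -0.37 for Trem2 (SE 0.16, adjusted p = 0.379) and -0.27 for Cd68 (SE 0.19, adjusted p = 0.638). The directions of these 4 genes were kept, and edgeR called 0 of the 7 genes within the lane, beside 1.06% of 15993 genes, with 4 at an unadjusted p under 0.05. Apoe (-0.76, adjusted p = 0.293) and Chil3 (-1.08, adjusted p = 0.731) also kept their direction, whereas Gpnmb was at 0.15 (adjusted p = 0.849). Site and lane cannot be told apart for the 6 SC tumors of lane 2.

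Markers of other cells moved with the AB1 comparison. All 5 skeletal muscle genes rose (0 of 5 were called in AE17, by edgeR or DESeq2), with a summed level of 95.3 to 3517 CPM in IPL tumors and 50.7 to 326 CPM in SC tumors. Within lane 3 all 5 kept their direction, but 0 were called (2 at an unadjusted p under 0.05), beside 1.06% of all genes. The 4 neutrophil genes that edgeR called in AB1 also kept their direction within the lane, with 0 called. Summed CPM of the neutrophil granule genes Camp, Ngp and Ltf was 28.2, 270.1, 182 and 64.2 in IPL replicates 1, 3, 4 and 5, and at most 1.01 in SC tumors. Without these 4 tumors Nos2 stayed called (-2.32, adjusted p = 0.024), while Mrc1 (-0.74, adjusted p = 0.0624), Trem2 (-0.34, adjusted p = 0.113) and Cd68 (-0.27, adjusted p = 0.166) were not called, and the count went from 4 genes to 1, beside 17.1% of 14967 genes. With muscle and other tissue scores as covariates no member was called, beside 5.11% of all genes, Nos2 being at -1.67 (adjusted p = 0.0754) and 2 members at an unadjusted p under 0.05.

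In AE17 tumors only Gpnmb, of the 7 genes, differed between the sites. The test called 5.73% of 14668 genes, 3.13% with a negative change. The median log2 fold change of the 7 genes was -0.13, beside 0 over all genes, with 5 of the 7 genes within 0.25 of 0 on either side.

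Gpnmb ran from 5.80 to 12.1 CPM in AE17 IPL tumors around a median of 8.99, while AE17 SC tumors spanned 6.26 to 30.8 CPM (median 19.3). All 8 IPL tumors were below the SC median, 6 of 8 SC tumors were above every IPL tumor, and the other 2 SC tumors lay inside the IPL range. Gpnmb fell by 1.00 on the log2 scale (SE 0.25, adjusted p = 0.0334), a level 2-fold lower in IPL tumors. The call was lost in 9 of 16 fits without 1 tumor, with adjusted p from 0.0534 to 0.0645 and log2 differences from -1.03 to -0.93. These left out IPL replicate 3, 4, 6, 7 or 8 or SC replicate 2, 5, 6 or 7. Gpnmb was also not called without the filter on low counts (1.93% of all genes called) or with tissue scores as covariates (1.41%).

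The tumors of lane 1 (3 IPL and 8 SC) gave a Gpnmb difference of -1.19 (SE 0.39, adjusted p = 0.262), in the same direction, and there edgeR called 0 of the 7 genes, beside 0.0911% of 15375 genes, with 1 at an unadjusted p under 0.05. Pigment cells also express Gpnmb. Of 5 listed melanocyte genes, 2 had a row. These 2, Tyrp1 and Tyr, were near 0, with a highest sum of 0.949 CPM in AE17 SC tumors and 0.0603 CPM in AE17 IPL tumors. The part of pigment cells in the Gpnmb difference was not tested.

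The other 6 genes did not pass the test in AE17. Nos2 ran from 8.31 to 27.7 CPM in IPL tumors around a median of 10.8, while SC tumors spanned 7.20 to 40.3 CPM (median 11.8), with a difference of -0.17 (SE 0.36, adjusted p = 0.807). Without SC replicate 1 it was 0.20 (adjusted p = 0.674). Mrc1 ran from 185 to 536 CPM in IPL tumors around a median of 282, while SC tumors spanned 271 to 402 CPM (median 321), with a difference of -0.15 (SE 0.17, adjusted p = 0.628). For both genes the sites overlapped widely.

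Trem2 ran from 30.3 to 50.4 CPM in AE17 IPL tumors and from 38.8 to 52.0 CPM in SC tumors, a difference of -0.13 (SE 0.09, adjusted p = 0.4) that was 0.04 within lane 1. Apoe ran from 643 to 1337 CPM in IPL tumors and from 504 to 1253 CPM in SC tumors (0.22, SE 0.18, adjusted p = 0.481). Cd68 ran from 139 to 176 CPM in IPL tumors and from 119.5 to 181 CPM in SC tumors (0.08, SE 0.08, adjusted p = 0.542). None of the 3 genes separated the sites. Chil3 ran from 3.26 to 23.7 CPM in IPL tumors and from 1.58 to 15.9 CPM in SC tumors, and its difference of 0.76 (SE 0.47, adjusted p = 0.323) had the opposite sign to that in AB1. Leaving out 1 tumor moved the Chil3 difference between 0.41 and 1.19, with no call.

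**Figure D2:**
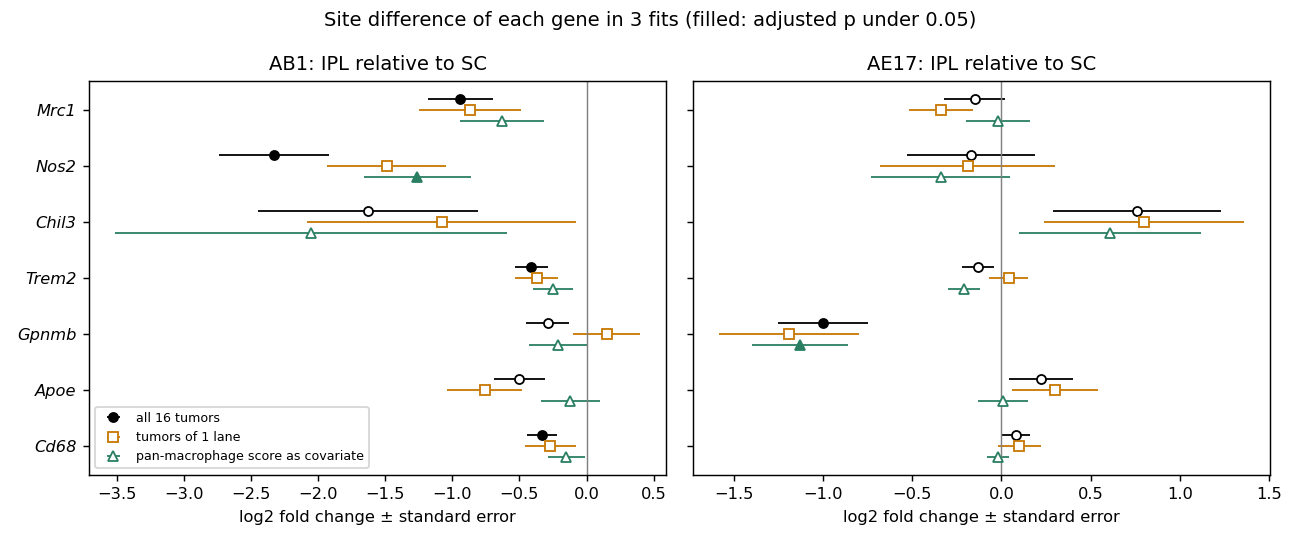
Log2 fold change of each gene in IPL relative to SC tumors, with its standard error, in AB1 (left) and AE17 (right). The 3 symbols are the fit of all 16 tumors, the tumors of 1 lane, and all 16 tumors with the pan-macrophage score as a covariate, and filled symbols have an adjusted p under 0.05. Nos2 in AB1 lies at -2.33, -1.49 and -1.26 in the 3 fits.

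Whether the site difference itself differed between the models was tested as the interaction in a fit of all 32 tumors, which called 20.5% of 15681 genes, 8.62% with a negative estimate. Of the 7 genes, Nos2 and Cd68 were called. The Nos2 site difference was 2.14 log2 units more negative in AB1 than in AE17 (estimate -2.14, SE 0.56, adjusted p = 0.00722), and each of the 32 fits without 1 tumor kept the call. It was not called with lane as a covariate (-1.25, adjusted p = 0.441, with 0.746% of all genes called) or with the score of 10 pan-macrophage genes described below as a covariate (-1.18, adjusted p = 0.212, 7.54%). For Cd68 the estimate was -0.39 (SE 0.14, adjusted p = 0.042), and 19 of the 32 fits lost it (adjusted p from 0.0511 to 0.09), all of those between -0.39 and -0.32. The 19 left out AB1 IPL replicate 1, 3, 5 or 7, AB1 SC replicate 1, 4, 5, 6, 7 or 8, AE17 IPL replicate 2, 4, 7 or 8, or AE17 SC replicate 4, 5, 6, 7 or 8. Nor was Cd68 called with lane or the pan-macrophage score as a covariate, or without the filter on low counts.

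Mrc1 (-0.77, SE 0.30, adjusted p = 0.0699), Apoe (-0.69, SE 0.27, adjusted p = 0.0638), Chil3 (-2.37, SE 0.97, adjusted p = 0.0831), Gpnmb (0.72, SE 0.31, adjusted p = 0.092) and Trem2 (-0.26, SE 0.15, adjusted p = 0.241) missed the threshold. The calls of Mrc1 and Trem2 in AB1, and of Gpnmb in AE17, are thus not shown to be particular to 1 model. Single tumors moved several of these across the threshold. Apoe was called without AB1 IPL replicate 2 or 4, AB1 SC replicate 3, AE17 IPL replicate 1, or AE17 SC replicate 1 or 3 (adjusted p from 0.0311 to 0.0425). Mrc1 was called without AB1 IPL replicate 2, AB1 SC replicate 3 or AE17 IPL replicate 6 (0.02 to 0.0467), Chil3 without AB1 IPL replicate 3 or AE17 SC replicate 1 (0.0125 to 0.0366), and Gpnmb without AE17 SC replicate 4 (0.0212). Over all fits without 1 tumor the Chil3 estimate ran from -3.26 to -1.27, with adjusted p up to 0.311.

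Between the models at the same site, 3 of the 7 genes were higher in AB1 among SC tumors, where 58.3% of all genes were called, 28.6% higher and 29.7% lower in AB1. Trem2 was higher by 0.56 (SE 0.11, adjusted p = 4.55e-05), and every AB1 SC tumor lay above every AE17 SC tumor. Apoe was higher by 0.78 (SE 0.19, adjusted p = 0.000771), with all 8 AB1 tumors above the AE17 median. Nos2 was higher by 1.10 (SE 0.39, adjusted p = 0.0167), a call lost without AB1 SC replicate 5 (0.75, adjusted p = 0.0831).

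Among IPL tumors 63.4% of all genes were called (31.6% higher and 31.8% lower in AB1), and 5 of the 7 members. Mrc1 (-0.70, SE 0.22, adjusted p = 0.00548), Nos2 (-1.04, SE 0.40, adjusted p = 0.0236) and Cd68 (-0.36, SE 0.10, adjusted p = 0.00195) were lower in AB1. Trem2 (0.30, SE 0.11, adjusted p = 0.017) and Gpnmb (0.55, SE 0.22, adjusted p = 0.0272) were higher in AB1. Nos2 was thus called higher in AB1 under the skin and lower in the pleural space, and Trem2 higher at both sites. With the pan-macrophage score as a covariate Nos2 (-0.28, adjusted p = 0.615) and Cd68 (-0.11, adjusted p = 0.4) were not called among IPL tumors, while Apoe was called as higher in AB1 (0.63, adjusted p = 0.00525). The IPL call of Nos2 was lost without AB1 IPL replicate 7 or AE17 IPL replicate 2 (log2 differences from -0.93 to -0.81, adjusted p from 0.0524 to 0.0761), and that of Gpnmb without AB1 IPL replicate 4, 5 or 8 or AE17 IPL replicate 3 or 8 (0.0503 to 0.0599).

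No lane held AB1 and AE17 tumors of the same site, so these comparisons have no within-lane value. With lane as a term, Trem2 was called among SC tumors (0.88, adjusted p = 0.000549) and was the only member called at either site. Nos2 among IPL tumors then stood at 0.05 (adjusted p = 0.973), against -1.04 without the term.

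In the order of mean levels, Mrc1 was lowest in AB1 IPL tumors (186 ± 71.8 CPM, SD, n = 8), below AE17 IPL (303 ± 106), AE17 SC (337 ± 54.5) and AB1 SC tumors (354 ± 110). The Mrc1 ranges of all 4 groups overlapped. In increasing order Nos2 stood at AB1 IPL (6.60 ± 3.58 CPM), AE17 IPL (13.6 ± 6.66), AE17 SC (15.3 ± 10.996) and AB1 SC (32.8 ± 23.9), and its 2 AE17 groups did not differ beyond their spread. Trem2 was highest in AB1 SC (64.8 ± 13.3 CPM), then AB1 IPL (49.2 ± 7.38), AE17 SC (43.9 ± 4.57) and AE17 IPL tumors (39.98 ± 6.42).

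The mean of Gpnmb was lowest in AE17 IPL tumors (8.98 ± 2.38 CPM), then AB1 IPL (13.2 ± 2.92), AB1 SC (15.97 ± 3.54) and AE17 SC tumors (17.97 ± 7.29). Its ranges overlapped in all 4 groups. The mean of Apoe was highest in AB1 SC tumors (1499 ± 359.6 CPM), then AB1 IPL (1074 ± 329), AE17 IPL (1014 ± 238) and AE17 SC tumors (875 ± 246). The Apoe ranges of all 4 groups overlapped too. Cd68 was lowest in AB1 IPL tumors (125 ± 25.3 CPM), and AE17 SC (152 ± 20.3), AB1 SC (155 ± 15.7) and AE17 IPL tumors (160.2 ± 12.5) lay within 1 SD of each other. Chil3 means (4.39 ± 5.98 CPM in AB1 IPL, 5.60 ± 4.71 in AE17 SC, 9.46 ± 6.65 in AE17 IPL and 13.5 ± 20.6 in AB1 SC) had SDs close to or above the means in 3 groups.

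A lower level in a whole tumor can go with less macrophage RNA, so each member was also set against 10 pan-macrophage genes. Of these, 3 fell in AB1 IPL tumors and none rose, with a median of -0.29, where 23% of all genes were called, 10.7% as lower. They were Ctss, a lysosomal protease (-1.29, adjusted p = 7.91e-06), C1qa, a complement subunit (-0.44, adjusted p = 0.0418), and Aif1, a cytoskeletal protein of macrophages (-0.44, adjusted p = 0.0428). Only Ctss stayed called within lane 3, though all 3 kept their direction. Csf1r, the receptor for the macrophage growth factor, was at -0.24 (adjusted p = 0.107), and it ran from 315 to 538 CPM over all AB1 tumors. In AE17 tumors edgeR and DESeq2 each called 0 of the 10 (3 at an unadjusted edgeR p under 0.05), and their median was 0.22.

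Relative to the mean log2 CPM of these 10 genes, Nos2 was 1.79 log2 units lower in AB1 IPL than in AB1 SC tumors (-4.66 ± 0.51 against -2.88 ± 0.83, SD, n = 8 each), and all 8 IPL tumors were below all SC tumors (6 of 8 against Csf1r alone). Mrc1 was at -0.60, with 4 of 8 IPL tumors below all SC tumors. Trem2 (-0.01), Cd68 (0.04), Gpnmb (0.11) and Apoe (-0.13) differed by less than 1 pooled SD (0.23 to 0.37). Chil3 was at -1.06, within its pooled SD of 1.67. Against Csf1r alone the differences were -1.93 for Nos2, -0.75 for Mrc1 and -0.16 for Trem2, the last beyond its pooled SD of 0.11, so Trem2 in AB1 depended on the reference.

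With the pan-macrophage score as a covariate, Nos2 was the only member called in AB1 (-1.26, SE 0.40, adjusted p = 0.0405), where 18.3% of all genes were called. In AE17 Gpnmb was called (-1.13, SE 0.27, adjusted p = 0.045, beside 1.57% of all genes), and against the 10 genes it was 1.15 log2 units lower in IPL tumors (-4.66 ± 0.41 against -3.51 ± 0.66). The other AE17 ratios were -0.44 for Mrc1, -0.38 for Trem2, -0.30 for Nos2, -0.16 for Cd68, -0.02 for Apoe and 0.58 for Chil3. Against Csf1r alone the AE17 values were -0.81 for Gpnmb, -0.10 for Mrc1, -0.04 for Trem2, 0.05 for Nos2, 0.19 for Cd68, 0.33 for Apoe and 0.92 for Chil3. The sign thus turned with the reference for Nos2, Cd68 and Apoe, and Mrc1 and Trem2 were nearer to 0 against Csf1r.

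**Figure D3:**
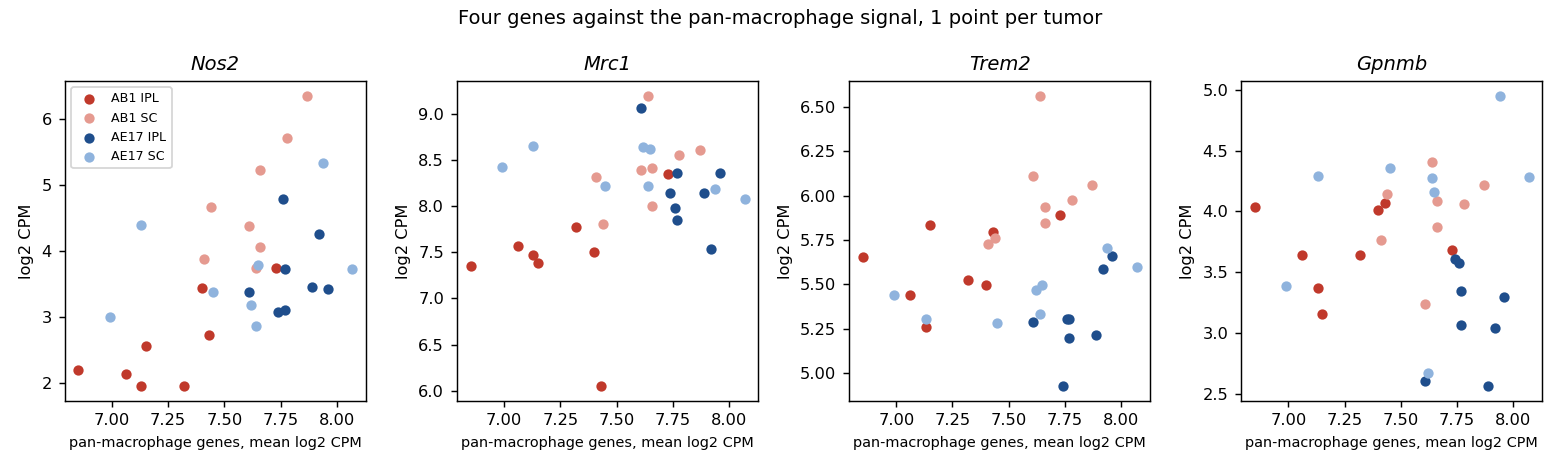
Log2 CPM of Nos2, Mrc1, Trem2 and Gpnmb against the mean log2 CPM of 10 pan-macrophage genes, 1 point per tumor, colored by group. AB1 IPL tumors lie at a mean of 7.26 on the horizontal axis and AB1 SC tumors at 7.63. Nos2 is below the AB1 SC tumors by more than that shift (1.79 log2 units relative to the 10 genes), and Trem2 is not (0.01).

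The related lists that follow share the lane limit of the members. Over all genes DESeq2 called 21.3% in AB1 and 9.72% in AE17, the shares to set beside its list counts below. Within lane 3 the AB1 call was kept by 1 of 4 arginine genes (Slc7a2, -2.86, adjusted p = 0.00601), 1 of 11 classical activation genes (Cd86), 6 of 12 alternative activation genes, 3 of 12 lipid-associated genes (Clec7a, Itgax and Fabp5) and 1 of 5 partners and regulators (Tfec), beside 1.06% of all genes called there. Every gene of these 5 lists that was called in AB1 kept its direction within the lane. In AE17 none of the called genes of these lists stayed called within lane 1 (0.0911% of all genes called) or with lane as a covariate (1 gene called of 14668), though each kept its direction. For the interaction with lane as a covariate, 0.746% of all genes were called. There 1 of 4 arginine genes (Slc7a2) and 1 of 8 classical activation genes (Cxcl10) stayed called. So did 4 of 8 lipid-associated genes (Fabp5, Axl, Itgax and Clec7a), 1 of 7 alternative activation genes (Pdcd1lg2) and 0 of 3 partners and regulators.

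Beside Nos2, the enzymes and carriers of arginine moved in AB1 tumors. Of 6 genes tested, 3 fell and 1 rose in AB1 IPL tumors, and edgeR and DESeq2 called 0 in AE17 (2 of 6 at an unadjusted edgeR p under 0.05). The arginine transporter Slc7a2 fell by 3.04 (SE 0.31, adjusted p = 1.03e-05), from 69.0 ± 33.0 to 8.46 ± 3.50 CPM, with no overlap between sites. The transporter Slc7a1 fell by 0.59 (adjusted p = 0.000301), and Ass1, which helps rebuild arginine from citrulline, fell by 0.73 (adjusted p = 0.00502). Nos1, the neuronal synthase, which skeletal muscle also expresses, rose by 2.48 (SE 0.61, adjusted p = 0.00661), from 0.803 to 4.59 CPM.

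The site difference of the arginine genes differed between the models for 4 of 6. Slc7a2 had an interaction of -3.62 (adjusted p = 6.89e-06), Slc7a1 of -0.77 (adjusted p = 0.000162) and Ass1 of -0.86 (adjusted p = 0.0171), the same direction as Nos2. Nos1 had an interaction of 3.11 (adjusted p = 0.00462).

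Other genes of classical activation fell with Nos2 in AB1 IPL tumors, 11 of 14 tested (median -0.77). They included the interferon-induced chemokines Cxcl9 (-1.55, adjusted p = 0.000232) and Cxcl10 (-1.21, adjusted p = 0.000576), the costimulator Cd86 (-1.26, adjusted p = 1.88e-05), the cytokine Tnf (-1.15, adjusted p = 0.00258) and the factor Irf1 (-0.71, adjusted p = 0.00255). In AE17 tumors 1 of the 14 fell (median 0.16), and Cxcl9 (0.25, adjusted p = 0.744) and Cxcl10 (0.57, adjusted p = 0.0811) were not called by edgeR. DESeq2 called 2 of the 14 in AE17, with Cxcl10 as higher in IPL tumors (0.57, adjusted p = 0.0368). The interaction was called for 8 of the 14, all negative. T cells are a source of interferon, and all 4 T cell genes tested also fell in AB1 IPL tumors (median -1.18), from a summed 52.5 to 94.6 CPM in SC tumors to 10.2 to 51.6 CPM in IPL tumors. Within lane 3, 1 of the 4 stayed called (Cd4). In AE17 edgeR called 0 of the 4 (1 at an unadjusted p under 0.05, and 1 called by DESeq2). The part of T cells in these differences was not tested.

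Beside Mrc1, 12 of 18 other genes of alternative activation fell in AB1 IPL tumors and none rose (median -1.38), and 6 of 17 fell in AE17 (median -0.55). The largest decrease in AB1 was in Pdcd1lg2, a ligand of the inhibitory receptor PD-1, at -3.82 (SE 0.31, adjusted p = 1.18e-06), from 45.6 ± 19.8 to 3.25 ± 1.31 CPM. Ccl24, an eosinophil chemokine, fell by 2.60 in AB1 (adjusted p = 0.0107). The lectin Cd209d fell in AB1 (-1.66, adjusted p = 0.0106) and in AE17 (-2.71, adjusted p = 0.00761), and Cd209f fell in AE17 (-2.73, adjusted p = 0.0198) and stood at -0.43 (adjusted p = 0.675) in AB1. Within a lane Cd209d was at -1.32 in AB1 (adjusted p = 0.441) and -2.71 in AE17 (adjusted p = 0.159), and Cd209f at -2.88 in AE17 (adjusted p = 0.183). Stab1, a scavenger receptor (0.12 in AB1 and 0.21 in AE17), and Tgm2, a transglutaminase (-0.08 and 0.44), were not called by edgeR in either model. DESeq2 called 8 of 18 in AE17, beside 9.72% of all genes. Among the 8, Tgm2 (0.44, adjusted p = 0.0191) and Msr1 (0.53, adjusted p = 0.0196) were higher.

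A pair of chemokines of this list, chosen after their values were seen, was lower in the pleural tumors of both models. Ccl17 was at -2.20 in AB1 (adjusted p = 0.00119) and -2.27 in AE17 (adjusted p = 0.00632), and Ccl22 at -1.39 (adjusted p = 0.0002) and -1.65 (adjusted p = 0.00761). Within a lane both stayed called in AB1 (-2.23, adjusted p = 0.0185, and -1.21, adjusted p = 0.0417) and neither in AE17 (-2.60 and -1.68, adjusted p = 0.163 each). Dendritic cells also make them. Of 6 dendritic cell genes, 2 fell in AB1 and 1 in AE17 by edgeR (2 each by DESeq2), among them Cd209a (-1.04 in AB1, adjusted p = 0.00759, and -1.72 in AE17, adjusted p = 0.00598), which was not called within a lane in either model (adjusted p = 0.202 and 0.159). Of the inducing type 2 cytokines, edgeR tested 2. Il33 fell in AB1 (-1.17, adjusted p = 0.0357) and was at -0.66 in AE17 (adjusted p = 0.215), and Il4, at 1.23 to 1.81 CPM on average in the 4 groups, was not called. Il13, below the filter at 0.236 CPM in AB1 IPL and 1.42 CPM in AB1 SC tumors on average, was lower by DESeq2 (-2.61, adjusted p = 0.000105), which called 2 of 4 of these cytokines in AB1.

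The lipid-associated list, which Trem2, Gpnmb and Apoe belong with, was mixed. In AB1 IPL tumors 9 of 15 genes fell and 3 rose (median -0.56), and in AE17 2 fell and 1 rose (median -0.09). The decreases in AB1 included the receptor Clec7a (-2.88, adjusted p = 2.74e-06), the integrin Itgax (-2.15, adjusted p = 9.01e-06), the fatty acid binding protein Fabp5 (-1.35, adjusted p = 3.92e-05), the cystatin Cst7 (-1.25, adjusted p = 0.000253) and the receptor Axl (-0.38, adjusted p = 0.00113). The 3 that rose in AB1 were the lipoprotein lipase Lpl (1.24, adjusted p = 0.0138), the fatty acid receptor Cd36 (0.96, adjusted p = 0.0174) and the lipid droplet protein Plin2 (0.27, adjusted p = 0.0415), and adipocytes and muscle also express Lpl and Cd36. Plin2 was also the gene that rose in AE17 (0.46, adjusted p = 0.0218). Spp1, osteopontin, fell in AE17 (-0.60, SE 0.08, adjusted p = 0.0023), as Gpnmb did, and was at -0.05 in AB1 (adjusted p = 0.913). Within lane 1 Spp1 was at -0.56 (adjusted p = 0.0694).

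Of the partners and regulators of Trem2 and Gpnmb, 4 of 11 fell and 1 rose in AB1 (median -0.25), and edgeR and DESeq2 called 0 in AE17 (median 0.05, 0 of 11 at an unadjusted p under 0.05). Tyrobp, the adaptor of Trem2, fell by 0.56 (adjusted p = 0.00399), and its relative Hcst by 1.16 (adjusted p = 0.00118). Tfec, a factor of the MITF family found in macrophages, fell by 1.87 (adjusted p = 4.05e-05), while Lrp1, a receptor for Apoe, rose by 0.51 (adjusted p = 0.00338).

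**Figure D4:**
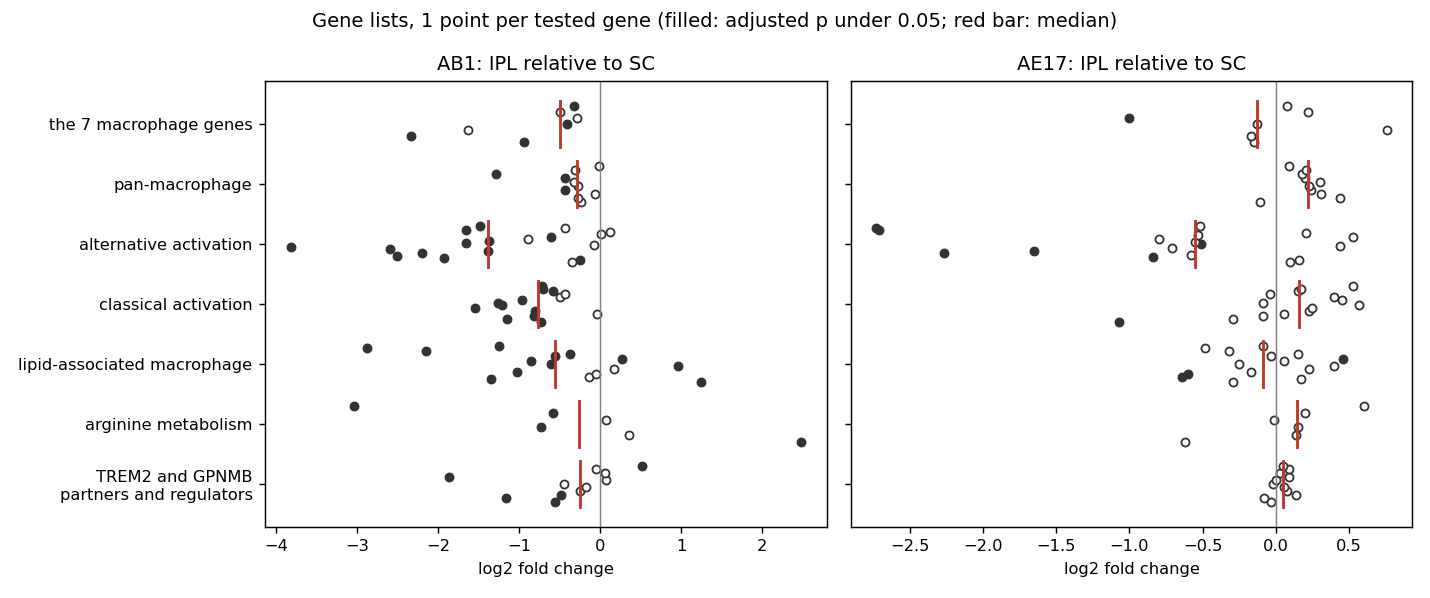
Log2 fold change of IPL relative to SC tumors for the 7 macrophage genes and 6 related lists, in AB1 (left) and AE17 (right), 1 point per tested gene, filled where the adjusted p was under 0.05. Red bars are medians: -1.38 and -0.55 for alternative activation, and -0.77 and 0.16 for classical activation.

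Paralogs of the members did not all follow them, with 1 of 4 tested by edgeR falling and 1 rising in AB1 and 0 of 5 called by edgeR in AE17 (1 at an unadjusted p under 0.05, and 1 called by DESeq2). Mrc2, the collagen-binding relative of Mrc1 found on fibroblasts, rose in AB1 IPL tumors by 0.78 (adjusted p = 0.000317), opposite to Mrc1. Trem1 fell by 0.89 (adjusted p = 0.0219). Within lane 3 neither Mrc2 nor Trem1 was called. Treml4 was not called (0.83, adjusted p = 0.0775). Chil1 (3.23 CPM in AB1 IPL against 0.203 in AB1 SC tumors) and Retn (1.40 against 0.416 CPM) were below the filter and not tested by edgeR in AB1, and DESeq2 called 3 of 6 paralogs in AB1, Chil1 as higher among them (adjusted p = 1.81e-08). Chia1 had no counts in any tumor. Chil4 is nearly identical to Chil3 and the counting could split reads between them. It followed Chil3 with a difference of -1.51 (adjusted p = 0.179) in AB1 and 0.58 (adjusted p = 0.532) in AE17, at 0.825 to 2.35 CPM on average per group.

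Markers of other cells that can carry these genes were counted in the same way. Alveolar macrophages and neutrophil precursors can express Chil3. Of 3 alveolar macrophage genes tested in AB1, 2 fell (median -2.02), with sums of 1.58 to 12.6 CPM in IPL and 7.44 to 56.8 CPM in SC tumors, and the highest tumors, IPL replicate 3 and SC replicate 6, were also highest for Chil3. In AE17 the highest tumors were IPL replicate 5 and SC replicate 6 for the alveolar genes, but IPL replicate 3 and SC replicate 1 for Chil3. There 1 of 2 genes fell, Ear1 (-2.21, adjusted p = 0.00761, and -2.34, adjusted p = 0.225, within lane 1). Of the neutrophil genes, 3 of 5 tested by edgeR rose and 1 fell in AB1 (DESeq2 called 7 of 8), and edgeR called 0 of 6 in AE17 (2 at an unadjusted p under 0.05, and 2 called by DESeq2). The eosinophil genes were mixed: edgeR tested 2 of 5, and both, Siglecf and Ccr3, fell in AB1 and 1 fell in AE17. Below the filter, the granule genes Prg2 (13.3 against 0.432 CPM) and Epx (3.02 against 0.0291 CPM) had higher means in AB1 IPL than in SC tumors, and DESeq2, which gave an adjusted p for all 5 in AB1, called 4, these 2 as higher. Of 5 serous cavity macrophage genes 1 rose and 1 fell in AB1 (Prg4 at 1.78 and Ccr2 at -1.17) and 1 rose in AE17. Within lane 3, 1 of the 2 alveolar genes called in AB1 stayed called (Car4), and none of the neutrophil, eosinophil or serous cavity genes did. Within lane 1 these lists held no call in AE17.

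Among tissue lists, 1 of 3 adipocyte genes tested by edgeR rose in AB1 (DESeq2 called 4 of 5), and edgeR and DESeq2 called 0 in AE17 (1 at an unadjusted edgeR p under 0.05), where IPL replicate 5 alone had a sum of 468 CPM. The 1 cardiac gene edgeR tested, Tnni3, and 1 of 2 lung epithelium genes, Napsa, fell in AB1. Myh6, the alpha myosin heavy chain of heart muscle, was below the filter at 9.28 CPM in AB1 IPL and 0.201 CPM in AB1 SC tumors on average, and DESeq2 called it as higher among the 2 cardiac genes and 1 lung gene it called there. In AE17 edgeR and DESeq2 called 0 of these lists (0 cardiac and 1 lung gene at an unadjusted edgeR p under 0.05). The 1 keratinocyte gene and the 1 mesothelial gene tested were not called by edgeR in either model, DESeq2 called 1 mesothelial gene in AB1 and 3 in AE17, and mesothelial genes summed to 76.1 CPM in AB1 IPL replicate 2. Within lane 3 edgeR called 0 genes of the adipocyte, cardiac and lung lists. The part of these cells in the members' differences was not tested.

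How the members varied together within groups was described by correlations of log2 CPM over the 32 tumors after the 4 group means were removed. Of 21 pairs, Trem2 and Apoe had the highest Pearson r (0.58, Spearman rho 0.59), with 0.51 once the 2 tumors farthest from the Trem2 median were left out. Nos2 and Cd68 (r 0.54, rho 0.55) and Trem2 and Cd68 (r 0.53, rho 0.61) followed by r, at 0.46 and 0.59 with 2 tumors left out in the same way, so the order of these 3 pairs changed with the measure. Mrc1 and Nos2 had an r of -0.05. The pairs share library and tissue makeup, and in AB1 SC tumors Mrc1 went with Chil3 (r 0.92), Trem2 (0.88) and Apoe (0.80), where replicate 6 was highest for all 4 genes.

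Among 13911 genes ranked in the same way, the closest to Trem2 was Csf1r (r 0.76), followed by Azin2 (0.71) and Ndufb4 (0.70). Nearest to Nos2 were the lectin receptors Clec4e and Clec4d (r 0.78 each) and the membrane protein Ninj1 (0.77). For Mrc1 they were the purinergic receptor P2ry12 (0.85), Fndc3b (0.83) and Clcn5 (0.81). For Apoe they were the cobalamin carrier Tcn2 (0.85), Tmem176b (0.85) and the chemokine Ccl8 (0.84).

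Cd68 was closest to the complement factor Cfp (0.83), Cd300lb (0.82) and Gm9025 (0.81). For Gpnmb the highest values were lower, at 0.68 for Dnase1l1 and 0.60 for Fxyd5 and Slc45a3. Chil3 had Chil4 (0.98), which may share its reads, then Nfe2 (0.70) and Ear1 (0.68). Leaving out the 2 tumors farthest from each member's median gave an r of 0.51 to 0.96 for these 21 genes, lowest for Ear1.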

How the data were processed

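RNA of 32 whole tumors was sequenced as 50 bp single-end reads of polyadenylated RNA. The authors demultiplexed with bcl2fastq 1.8.4, aligned with HISAT2 2.0.4 to a mouse genome and deposited unnormalized read counts per gene, 1 column per tumor. Their genome name did not settle the build, so identifiers were matched to GENCODE M21 on GRCm38, where 39495 of 39676 matched without their version. Reads shared by near-identical genes limit Chil3.

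Site comparisons were fitted in edgeR 4.0.16 (R 4.3.3) on the 16 tumors of a model, with low counts filtered, TMM scaling and a robust quasi-likelihood F test (two-sided). The interaction and the AB1 against AE17 comparisons came from 1 fit of 32 tumors. Adjusted p-values are Benjamini-Hochberg over all genes tested. All 7 genes passed the filter. Log2 CPM used a prior count of 2. On simulated counts of the AB1 comparison, 81.1% of 196 genes changed by a log2 of 1 were recovered, with 8 false calls. That change is larger than those of Mrc1, Trem2, Gpnmb, Apoe and Cd68 in AB1. The share therefore does not show how often changes of their size would be found. Totals of 15432258 to 20649645 counts limit precision mainly for genes with few reads. Replicate tumors differed beyond sampling noise in all 112 pairs.

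The members, lists and tests were chosen with earlier results of these data known. Genes named from lists were at most 4 with the largest called change and the 2 with the highest CPM, with paralogs and the 3 genes best correlated with each member. Named outside this rule were Csf1r, Lpl, Cd36, Plin2, Ccl17, Ccl22, Msr1, Il13, Camp, Ngp and Epx. Alternatives were DESeq2 1.42.0, other scalings, no filter, lane, macrophage and tissue covariates, a replicate block and leaving out tumors. The 3 listed members without a row, and some genes of the related lists, are not reported here.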

Additional observations from a re-analysis of the deposited data

Results flagged for a closer look

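Of 28 groups of 8 tumors tested for a tumor far from the others, 2 were flagged by the gap to the nearest tumor over the whole range on the log2 CPM scale, and chance flags about 1 in 20 groups. Mrc1 was 66.1 CPM in AB1 IPL replicate 4 (gap over range 0.57). Trem2 was 94.5 CPM in AB1 SC replicate 6 (gap over range 0.54). On the linear CPM scale 6 groups held such a tumor, the widest gap being that of Chil3 in AB1 SC replicate 6 (gap over range 0.86). The site differences of Nos2 (interaction -2.14, adjusted p = 0.00722) and Cd68 (interaction -0.39, adjusted p = 0.042) differed between AB1 and AE17, and that of Cd68 was lost in 19 of 32 fits without 1 tumor.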

How the results depend on the processing

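Lane is the main limit, since it is nearly tied to site. With lane as a covariate the genes called numbered 386 in AB1, 1 in AE17, 117 for the interaction, 5268 among SC and 5008 among IPL tumors, and the members called 0, 0, 0, 1 and 0 (3, 1, 2, 2 and 2 at an unadjusted p under 0.05). Within 1 lane 169 (AB1) and 14 (AE17) genes and 0 members were called. Signs turned with lane as a covariate for Gpnmb in AB1 (0.19; 0.15 within a lane), Trem2 in AE17 (0.04 in both), Mrc1 among SC tumors (-0.19), and Nos2 (0.05) and Apoe (-0.15) among IPL tumors. With the pan-macrophage score the calls were 231 genes in AE17 and 1182 for the interaction, with 1 member in AB1 and 0 for the interaction, and Cd68 in AE17 was at -0.02. Tissue scores gave 748 (AB1) and 207 (AE17) genes and 0 members in each. AE17 genes numbered 1768 in DESeq2, 550 without a filter and 1324 in a fit of all 32 tumors. Without a filter 0 members were called in AE17 (1 at an unadjusted p under 0.05), beside 1.93% of genes. For the interaction 1 member was called then (9.01% of genes). Among IPL tumors 4 were (38.3% of genes), and Nos2 was lost (-1.01, adjusted p = 0.0524). Without the 4 AB1 IPL tumors rich in neutrophil granule genes, an alternative chosen after seeing the data, 1 member was called in AB1 and 3 among IPL tumors (17.1% and 58.3% of genes). Among IPL tumors Mrc1 (adjusted p = 0.08), Nos2 (0.102) and Gpnmb (0.157) were lost and Chil3 was gained (-2.93, 0.00765), and for the interaction Cd68 was lost (0.134) and Chil3 gained (-4.2, 0.0125). The cause of these shifts was not tested. Leaving out 1 tumor gave 2877 to 3652 genes and 3 to 5 members in AB1, 316 to 2066 and 0 to 1 in AE17, 2722 to 3664 and 1 to 4 for the interaction, 8862 to 9201 and 2 to 4 among SC tumors, and 9686 to 10067 and 4 to 6 among IPL tumors. Uncalled values that changed sign then were Apoe among IPL tumors (-0.01 to 0.17, the former without AB1 IPL 4), Cd68 (0 to 0.07, without AB1 SC 5) and Mrc1 (-0.07 to 0.14, without AB1 SC 6) among SC tumors, and Nos2 in AE17 (-0.42 to 0.20, the latter without AE17 SC 1). Same-numbered IPL and SC tumors are different mice, and their deviations correlated by -0.14 (AB1) and 0.09 (AE17) on average, so the numbers do not pair them. A replicate block gave 2263 (AB1), 661 (AE17), 2398 (interaction), 8943 (SC) and 9706 (IPL) genes and the same member calls.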
